A study of Mus musculus with 68 samples.

Results

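The hypertrophic zone of the mouse growth plate was compared with the proliferative zone of the same animals, as labelled, at P28, in ethanol-treated sections. Members were the ethanol libraries labelled P28 and either hypertrophic or proliferative, 9 of each among the 68 libraries of the series. Columns sharing a library name were summed, libraries with at least 100000 counts were kept, and the libraries of 1 animal and zone were added together. This left 5 hypertrophic and 6 proliferative libraries, 11 in all, from 3 animal labels that had both zones, called animals A, B and D here. The libraries of A and B were deposited in 1 set, with 1 column each, and those of D in another, with 2 columns each. Animal D and deposited set therefore cannot be told apart. All mice were of mixed background, and the labels name no allele, treatment or sex. Bones were snap-frozen and cut, the zones were taken by laser capture, and poly(A) RNA of the lysed cells was made into SMART-seq2 libraries with Tn5. The label of animal B is plural, so it may be a pool, and label suffixes 1 and 2 of animals A and B were treated as 1 animal. The P-values below set the zone difference in these 3 animals against the spread of such differences from animal to animal. That spread was estimated jointly from P2 and P28 sums of the resting, proliferative and hypertrophic zones, not from these 3 animals alone.

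Growth plate chondrocytes divide in columns in the proliferative zone, where they lay down type II collagen and aggrecan. They then leave the cell cycle, enlarge and become hypertrophic, a state marked by type X collagen and by genes of matrix mineralisation. Indian hedgehog from prehypertrophic cells and parathyroid hormone-related protein form a feedback loop that sets where this switch occurs.

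Some libraries stood apart, and this bears on every value that follows. Total counts per animal and zone ran from 121510 to 2132569 in the hypertrophic sums and from 339329 to 915624 in the proliferative sums. The ribosomal RNA symbol Rn45s took 38.4%, 40.8% and 81.0% of hypertrophic counts in animals A, B and D, against 29.6%, 28.4% and 53.5% of proliferative counts. Fewer genes were detected in the hypertrophic sum of each animal, 5096, 7916 and 6424, than in the proliferative sums, with 10324, 11626 and 7164. Hypertrophic library 8 of animal D held only 13080 counts outside Rn45s, Lars2 and Glra2. Proliferative library 9, labelled as animal D, held 267 Xist counts and 0 counts of Y-linked genes, whereas hypertrophic library 9 of the same label held 0 Xist and 179 Y-linked counts; the other two libraries of that label in these zones held 4 or fewer of either. Without these 2 libraries (hypertrophic 8 and proliferative 9) 56 genes passed the test, 51 of them shared with the 78 of the full fit. The part of RNA quality and of the mismatched library in the results was not tested, and in captured tissue fewer cells of a type and less RNA per cell cannot be told apart.

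Loxl4, Aldh1a3, Ibsp and Fgfr1 were higher and Tgfbi, Prelp, Angptl2 and Ucma lower in all 3 animals, with no overlap between the zones. Of 6958 genes tested with edgeR's quasi-likelihood test and Benjamini-Hochberg adjustment, 78 (1.12%) passed an adjusted p of 0.05. In the hypertrophic zone 38 (0.546%) were higher and 40 (0.575%) lower. The direction was the same in 3 of 3 animals for all 78, and the zones did not overlap for 36 of the higher and 39 of the lower genes. The test that chose these genes used the same 3 animals, so such agreement largely follows from the choice and is no separate support. The median log2 fold change (hypertrophic minus proliferative) of all genes tested was -0.52, and 4203 of the 6958 lay below 0. That median was -1.07 without hypertrophic library 9 and -0.12 without proliferative library 9. Levels are given as counts per 1000000 (CPM) of the TMM-adjusted library size. Fits without animal A, B or D called 18, 18 and 41 genes, of which 17, 18 and 35 were among the 78. Loxl4, Aldh1a3, Fgfr1, Pcsk6, Tgfbi, Prelp and Angptl2 passed in all 14 fits that left out an animal or a library.

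**Figure D1:**
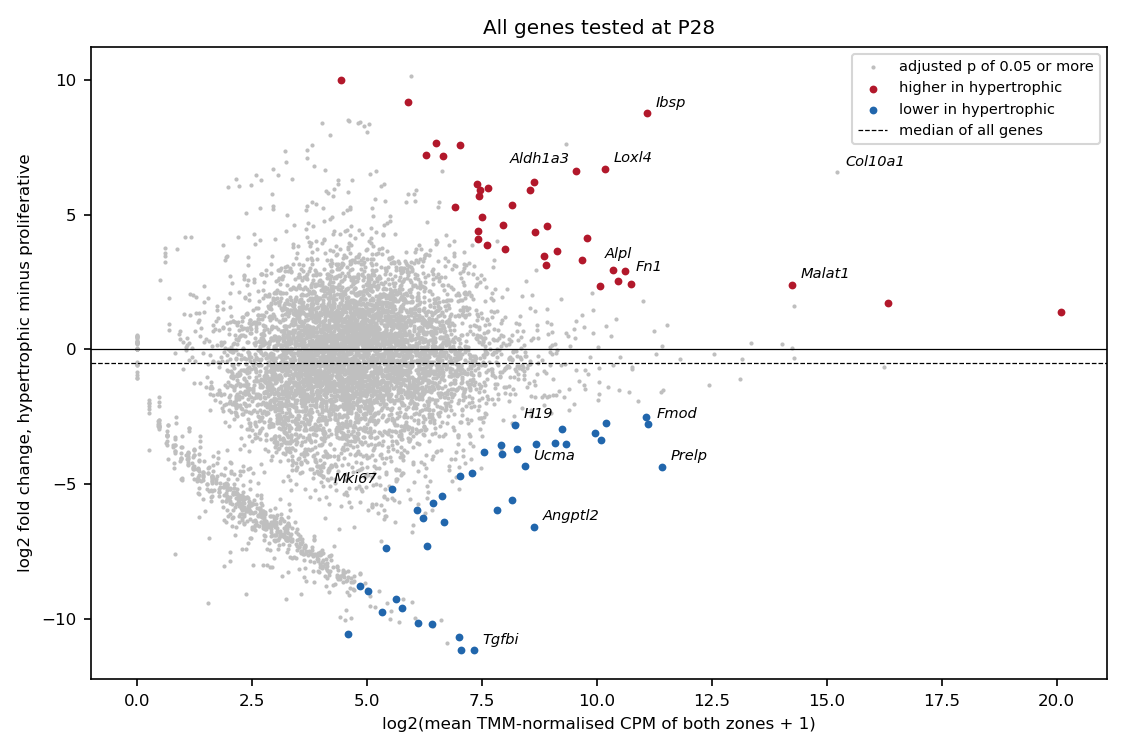
Log2 fold change of each of the 6958 genes tested (hypertrophic minus proliferative, vertical axis) against its mean TMM-normalised level in both zones (log2 of CPM plus 1, horizontal axis). Red points are the 38 higher and blue points the 40 lower genes, and the dashed line is the median of all genes at -0.52; the lower edge of the cloud holds genes with 0 hypertrophic counts, whose fitted value is no bound.

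Genes of the prehypertrophic and hypertrophic zone were led by Loxl4, a lysyl oxidase-like enzyme that crosslinks collagen and elastin. Loxl4 measured 2474, 2004 and 2418 CPM in the hypertrophic zone of animals A, B and D and 32.9, 33.9 and 10.8 CPM in the proliferative zone. The hypertrophic values lay close together and far above every proliferative value. The log2 fold change was 6.71 ± 0.88 (SE, adjusted p = 1.33e-10), and the pooled ratio was 82.1-fold with an exact 95% interval of 61.9 to 111, which covers counting error only.

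The bases upstream of Loxl4 (build GRCm38.p6, chr19:42612814-42613056, minus strand, RefSeq promoter table, outside the annotated exons) are shown because Loxl4 was the call with the smallest p. The gene itself lies at chr19:42592279-42612806. No RUNX core TGTGGT was found on either strand, so the sequence carries no capitals.
Loxl4: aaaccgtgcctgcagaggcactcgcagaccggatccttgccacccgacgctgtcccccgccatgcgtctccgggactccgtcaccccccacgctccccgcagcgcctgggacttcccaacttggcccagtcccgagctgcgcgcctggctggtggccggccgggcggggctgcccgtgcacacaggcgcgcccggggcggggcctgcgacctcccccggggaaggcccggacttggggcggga
The RUNX core stood in 6 of 42 promoters of the prehypertrophic and hypertrophic list (14.3%), beside 14.1% of all 32851 promoters of 250 bases and 10.0% of those of the genes tested. It stood in 0 of 4 promoters of the list's called genes that the table holds, and absence of these letters from a window says nothing of the factor.

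Aldh1a3, which makes retinoic acid from retinaldehyde, measured 1454, 1523 and 1451 CPM in the hypertrophic zone and 37.6, 13.6 and 10.8 CPM in the proliferative zone. The spread between animals was small in the hypertrophic zone, at 1476 ± 40.9 CPM (SD, n = 3), and the log2 fold change was 6.63 ± 0.95 (SE, adjusted p = 1.02e-08). Ibsp, which codes for bone sialoprotein and is bound to mineralised matrix, measured 4434, 5300 and 3304 CPM against 23.5, 2.26 and 30.2 CPM. All hypertrophic sums were high and all proliferative sums held 14 counts or fewer, giving a log2 fold change of 8.77 ± 1.32 (SE, adjusted p = 1.14e-04). Alpl, the phosphatase that removes the mineralisation inhibitor pyrophosphate, measured 1245, 1526 and 4170 CPM against 320, 402 and 164 CPM. Its highest and lowest levels both came from animal D, and the log2 fold change was 2.94 ± 0.76 (SE, adjusted p = 0.0155). Phex, an endopeptidase of phosphate balance, measured 72.3, 783 and 274 CPM against 49.4, 2.26 and 0 CPM. In animal A the zones differed little, with 9 hypertrophic and 21 proliferative counts in sums of unequal depth, and the log2 fold change was 5.97 ± 1.51 (SE, adjusted p = 0.0127).

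Of the prehypertrophic and hypertrophic markers, 4 of 27 tested (Loxl4, Aldh1a3, Ibsp and Alpl) were higher and 0 lower, with a median log2 fold change of 2.15 beside -0.52 over all genes. Of the mineralisation genes, 3 of 12 (Alpl, Ibsp and Phex) were higher and 0 lower, with a median of 0.75. That median was -0.37 with 1 call without hypertrophic library 9, and 1.63 with 4 calls without proliferative library 9. Without animal D the median was 0.43 and none of Ibsp, Alpl and Phex passed (adjusted p = 0.448, 0.476 and 0.515). Phex also missed the threshold without animal B (adjusted p = 0.520), Ibsp without proliferative library 1, and Alpl without animals A or B or hypertrophic library 9. Ibsp and Phex are osteoblast markers too. Summed over 14 osteoblast and osteocyte markers, levels were 4745 to 6414 CPM in the hypertrophic and 642 to 882 CPM in the proliferative sums. Dmp1, Mepe and Bglap2 were at 0 throughout. Ibsp alone measured 4434, 5300 and 3304 CPM in the hypertrophic zone of animals A, B and D, so that sum largely repeats a called gene. Of the 5 markers tested 2 had a fitted value below 0, and the median log2 fold change was 0.41. The part of osteoblasts in the result was not tested.

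Col10a1, the type X collagen gene that defines the hypertrophic zone, did not pass the main test although its levels were far apart. It measured 73538, 99345 and 50583 CPM in the hypertrophic zone and 3387, 2725 and 128 CPM in the proliferative zone. Every hypertrophic sum was far above every proliferative sum. Among single libraries, hypertrophic library 8 held 97 Col10a1 counts, 129 CPM of its whole total, against 46 to 6058 CPM in the proliferative libraries. Those totals are unlike, with Rn45s at 94.0% in hypertrophic library 8 and 26.2% to 55.3% in the proliferative libraries. Only 13080 counts of library 8 lay outside Rn45s, Lars2 and Glra2. Among them were 47 Ibsp counts, against 0 to 11 in the proliferative libraries. The Col10a1 log2 fold change was 6.57 ± 2.07 (SE, adjusted p = 0.272). Over 27 alternatives it ran from 4.74 to 8.07 with adjusted p from 5.09e-27 to 0.694. DESeq2, which estimates spread differently, gave an adjusted p of 4.28e-06. Mmp13, a collagenase of late hypertrophic cartilage, measured 787, 84.3 and 0 CPM against 0 in every proliferative sum and had too few counts to be tested. Spp1, the osteopontin gene, measured 3181, 674 and 0 CPM against 2.35, 1.13 and 4.32 CPM, so animal D lay apart, with a log2 fold change of 7.61 ± 4.69 (SE, adjusted p = 0.608). Spp1 passed in only 2 of 26 alternatives, and DESeq2 gave it an adjusted p of 0.232. Among those that passed was the fit without proliferative library 9, at 10.25 with an adjusted p of 0.0106.

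**Figure D2:**
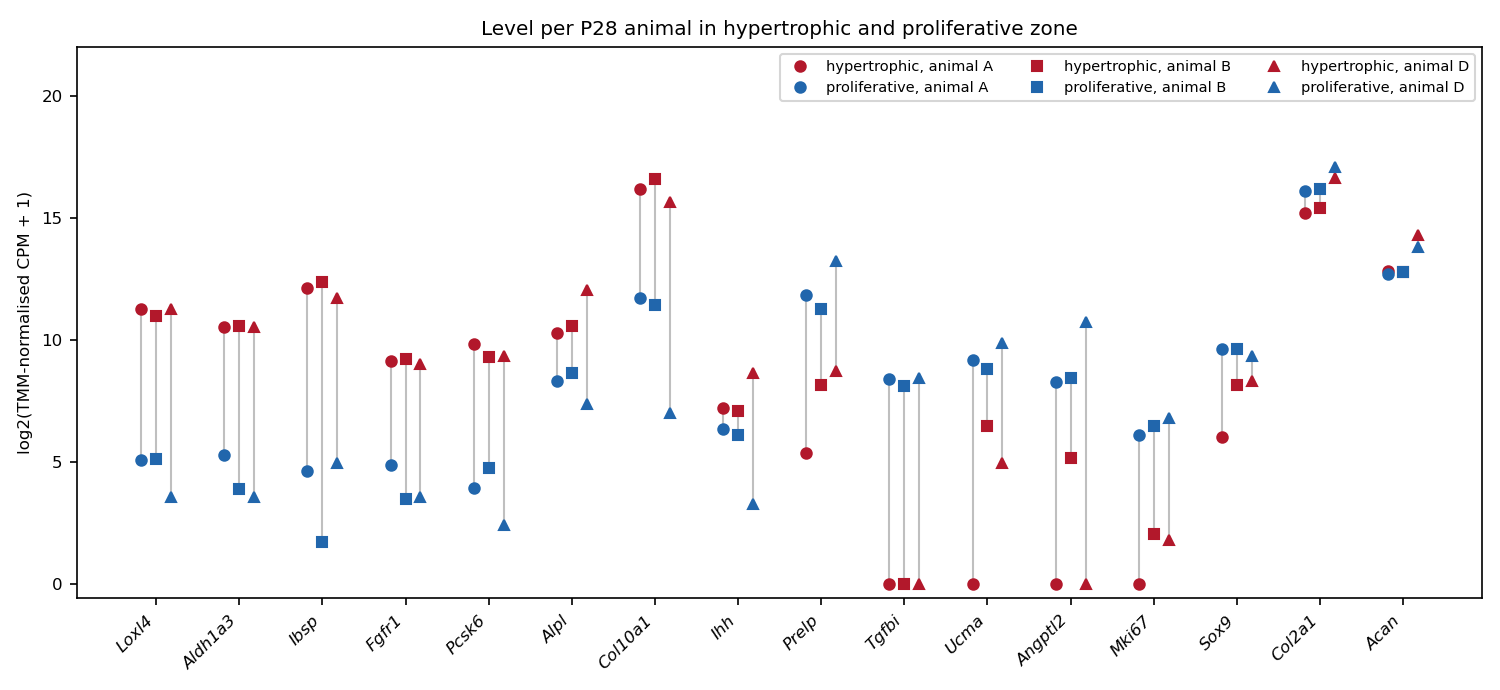
Level of 16 genes in each P28 animal, as log2 of TMM-normalised CPM plus 1 (vertical axis). Each grey line joins the hypertrophic (red) and proliferative (blue) value of 1 animal (circle A, square B, triangle D); the zones are separate from Loxl4 to Angptl2 and for Mki67 and Sox9, and Col2a1 and Acan overlap.

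The signalling genes that place the hypertrophic switch did not pass. Ihh, the hedgehog ligand, measured 145, 134 and 392 CPM in the hypertrophic zone and 79.9, 67.9 and 8.64 CPM in the proliferative zone, without overlap. Its log2 fold change was 2.15 ± 1.24 (SE, adjusted p = 0.498). Pth1r, the receptor for parathyroid hormone-related protein, measured 2233, 3530 and 5964 CPM against 1784, 2468 and 1566 CPM, with overlapping zones and a log2 fold change of 0.88 ± 0.55 (SE, adjusted p = 0.553). No gene passed among 12 tested of the hedgehog pathway (median log2 fold change -0.98) or 10 of the PTHrP pathway (median 1.17).

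Receptor and Wnt genes did pass. Fgfr1, a fibroblast growth factor receptor, measured 562, 584 and 506 CPM in the hypertrophic zone and 28.2, 10.2 and 10.8 CPM in the proliferative zone. The zones were far apart in every animal, with a log2 fold change of 5.37 ± 1.02 (SE, adjusted p = 1.17e-04). It was the only one of 5 tested FGF pathway genes to pass, and that list's median was -0.91. Frzb, a secreted Wnt inhibitor, measured 1333, 1339 and 111 CPM against 49.4, 57.7 and 4.32 CPM. Animal D was low in both zones, and the log2 fold change was 4.57 ± 1.19 (SE, adjusted p = 0.0427). Tcf7l2, a transcription factor of the Wnt pathway, measured 1068, 880 and 1170 CPM against 68.2, 88.2 and 97.2 CPM, a log2 fold change of 3.67 ± 0.81 (SE, adjusted p = 0.00174). These 2 were the calls among 15 Wnt pathway genes tested, whose median was -0.70. Frzb lost its call in 7 and Tcf7l2 in 3 of the 14 left-out fits, with adjusted p up to 0.279 and 0.129, in both cases without animal A.

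Of 29 BMP and TGF-beta pathway genes 1 was higher and 2 were lower. Bmp8a, a bone morphogenetic protein, measured 426, 381 and 207 CPM in the hypertrophic zone against 4.70, 22.6 and 0 CPM (log2 fold change 5.93 ± 1.51 SE, adjusted p = 0.0137). Id2, an inhibitor of helix-loop-helix factors and a BMP response gene, held 0 hypertrophic counts in all animals and measured 44.7, 19.2 and 225 CPM in the proliferative zone. It was at least 22.4-fold lower against a floor of 3 counts over the group (adjusted p = 0.0338), but 104 of its 140 counts came from animal D, and the call was lost in 8 of the 14 left-out fits, among them that without proliferative library 9. Bmp8a was not called without any 1 of the animals (adjusted p = 0.401, 0.133 and 0.0819 without A, B and D) or with DESeq2 (adjusted p = 0.481). Among 27 chondrocyte transcription factors 3 were higher, Tcf7l2, Irx5 and Sox4. Irx5, an Iroquois homeobox factor, measured 185, 209 and 370 CPM against 2.35, 1.13 and 0 CPM, so every proliferative sum held at most 1 count (log2 fold change 7.59 ± 1.68 SE, adjusted p = 0.00188). It was lost without animal B (adjusted p = 0.102), without hypertrophic library 9 and with DESeq2 (adjusted p = 0.582). Sox4 measured 586, 87.4 and 32.1 CPM against 4.70, 7.92 and 0 CPM, with a wide spread over the hypertrophic sums (adjusted p = 0.0309), and was lost in 7 of the 14 left-out fits (adjusted p up to 0.614, without animal A).

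Sox9 and Runx2, which drive early chondrocyte and hypertrophic programmes respectively, did not pass. Sox9 measured 64.3, 281 and 313 CPM in the hypertrophic zone, below 787, 779 and 642 CPM in the proliferative zone, with a log2 fold change of -1.78 ± 0.76 (SE, adjusted p = 0.301). Runx2 measured 169, 112 and 528 CPM against 120, 140 and 888 CPM, overlapping, with a log2 fold change of -0.35 ± 0.89 (SE, adjusted p = 0.933). The sign for Runx2 turned without proliferative library 9, at 1.57.

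Matrix enzymes and adaptors were higher in part. Pcsk6, a proprotein convertase, measured 900, 621 and 649 CPM in the hypertrophic zone and 14.1, 26.0 and 4.32 CPM in the proliferative zone (log2 fold change 5.92 ± 1.15 SE, adjusted p = 1.88e-04). Timp3, an inhibitor of metalloproteinases, measured 1350, 1442 and 2176 CPM against 113, 155 and 23.8 CPM (log2 fold change 4.12 ± 0.86 SE, adjusted p = 6.73e-04). Cst3, the cysteine protease inhibitor cystatin C, measured 2129, 2678 and 2389 CPM against 280, 274 and 689 CPM (log2 fold change 2.52 ± 0.67 SE, adjusted p = 0.0227). All 3 had separate zones in every animal, and with Serpinh1, which was lower, they were the calls among 21 proteases and inhibitors. Fn1, the fibronectin gene, measured 3334, 2981 and 1868 CPM against 355, 261 and 519 CPM (log2 fold change 2.89 ± 0.63 SE, adjusted p = 0.00164) and was the only call among 16 genes of the aggrecan complex and matrix adaptors. Without hypertrophic library 9 none of Fn1, Cst3 and Timp3 passed, with adjusted p of 0.240 for Fn1 and 0.784 for Cst3, whose log2 fold change was 0.89 there. Without animal A they did not pass either (adjusted p = 0.145, 0.473 and 0.0763), nor did Fn1 and Cst3 without animal B (adjusted p = 0.219 and 0.473).

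Other genes with large differences fell outside the named pathways. Slc37a2, a sugar-phosphate transporter, held 0 proliferative counts and measured 48.2, 15.6 and 284 CPM in the hypertrophic zone, at least 87.6-fold higher (adjusted p = 0.0165). That bound rests mostly on hypertrophic library 9, which held 114 of the 126 counts, with 6 and 5 in animals A and B. Lipg, endothelial lipase, measured 177, 197 and 163 CPM against 0, 2.26 and 0 CPM, a narrow spread around 179 ± 17.0 CPM (SD, n = 3, adjusted p = 0.00366). Cxcr7, a chemokine receptor, measured 193, 165 and 96.2 CPM against 0, 4.52 and 0 CPM (adjusted p = 0.00808). Zfp36l1, an RNA-binding decay factor, Hpgd, which breaks down prostaglandins, and Fam43a completed the 12 higher genes of the naming rule, with log2 fold changes of 7.17, 6.15 and 6.21. Their zones did not overlap, and apart from Fam43a, lost only without animal B, each missed the threshold in 4 or 5 of the 14 left-out fits, as did Slc37a2, Lipg and Cxcr7. DESeq2 did not call Slc37a2 (adjusted p = 0.584) or Lipg (adjusted p = 0.156).

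Among the lower genes were 5 matrix proteins of the proliferative and columnar list. Tgfbi, a secreted matrix protein induced by TGF-beta, held 0 hypertrophic counts in all 3 animals and measured 336, 275 and 344 CPM in the proliferative zone, from 143, 243 and 159 counts. It was at least 87.1-fold lower against 3 counts over the group (adjusted p = 1.98e-07). Prelp, a small leucine-rich proteoglycan that anchors matrix to basement membrane, measured 40.2, 284 and 424 CPM against 3660, 2468 and 9600 CPM. Each hypertrophic value was below each proliferative one, and the log2 fold change was -4.36 ± 0.68 (SE, adjusted p = 2.48e-07). Ucma, a cartilage matrix protein, measured 0, 87.4 and 29.6 CPM against 569, 443 and 936 CPM (log2 fold change -4.35 ± 0.84 SE, adjusted p = 1.82e-04), and among the 14 left-out fits missed the threshold in 1, without animal A (adjusted p = 0.0811).

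Fmod, the fibromodulin gene, measured 177, 212 and 1769 CPM in the hypertrophic zone and 2193, 1811 and 7063 CPM in the proliferative zone. The highest hypertrophic sum lay just under the lowest proliferative one, and the log2 fold change was -2.77 ± 0.62 (SE, adjusted p = 0.00253). Epyc, epiphycan of growth cartilage, measured 0, 15.6 and 170 CPM against 214, 169 and 869 CPM (log2 fold change -3.57 ± 0.89 SE, adjusted p = 0.0114), and animal D's hypertrophic value was level with animal B's proliferative value. Scrg1, a chondrogenesis-linked gene, measured 40.2, 112 and 109 CPM against 1013, 717 and 1242 CPM (log2 fold change -3.47 ± 0.83 SE, adjusted p = 0.00694). Fmod, Epyc and Scrg1 were all lost without animal A, at adjusted p of 0.282, 0.487 and 0.355, and without animal B or hypertrophic library 2.

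Of 15 tested proliferative and columnar zone markers 5 were lower (Ucma, Prelp, Fmod, Tgfbi and Epyc) and 0 higher, with a median of -0.78, close to that of all genes. Among the small leucine-rich proteoglycans 3 of 10 were lower and the median was -2.77, or -2.18 with genes at 0 set to their bound. Without hypertrophic library 8 and proliferative library 9 the columnar median was 0.03 while that of all genes was -0.15. The resting zone markers went both ways, with Frzb and Fgfr1 higher and Ucma and Scrg1 lower among 20 tested.

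The main cartilage collagens were not called. Col2a1 measured 37793, 42768 and 102260 CPM in the hypertrophic zone and 70128, 74330 and 137450 CPM in the proliferative zone, lower in 3 of 3 animals but overlapping between them, with a log2 fold change of -0.67 ± 0.35 (SE, adjusted p = 0.436). Acan, the aggrecan core protein gene, measured 7165, 7067 and 20037 CPM against 6612, 6982 and 14453 CPM (log2 fold change 0.23 ± 0.44 SE, adjusted p = 0.909), and its sign turned without animal D, without hypertrophic library 9 and after thinning. Col12a1, a fibril-associated collagen, was the only call among 13 cartilage collagens, at 0, 62.4 and 469 CPM against 1213, 684 and 1424 CPM (log2 fold change -3.51 ± 0.92 SE, adjusted p = 0.0187). It was lost without animal A (adjusted p = 0.694), animal B, hypertrophic library 2 or proliferative library 9. Serpinh1, the collagen chaperone HSP47, measured 241, 899 and 967 CPM against 2800, 2596 and 5337 CPM (log2 fold change -2.50 ± 0.64 SE, adjusted p = 0.0137), and was lost without animal A (adjusted p = 0.487), animal B, hypertrophic library 2 or proliferative library 9. Among 24 genes of lysyl oxidases and collagen modification the calls were Loxl4, higher, and Serpinh1, lower.

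**Figure D3:**
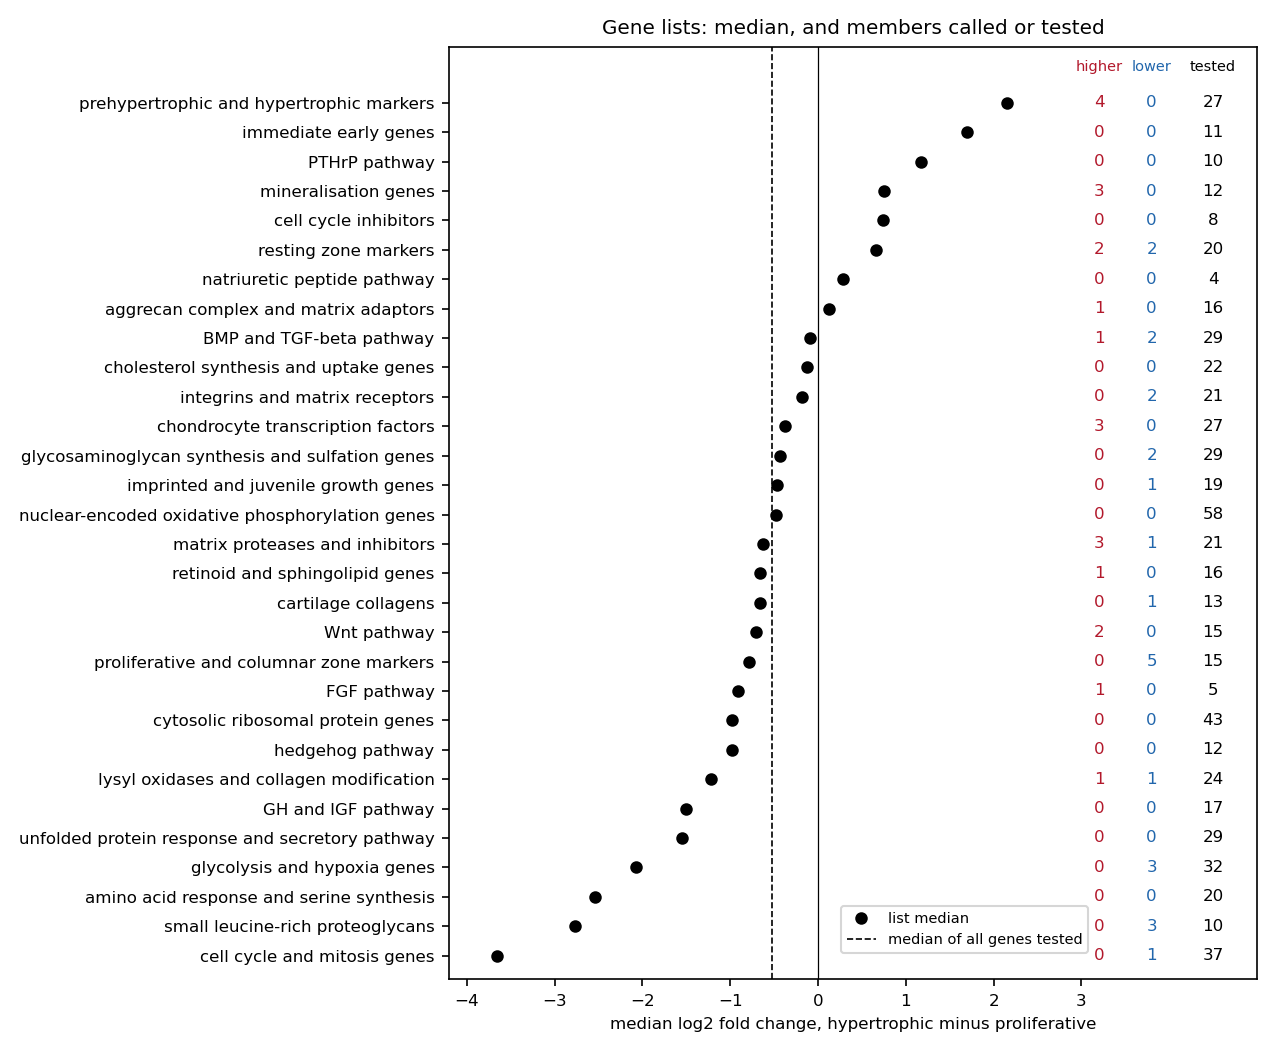
Median log2 fold change (hypertrophic minus proliferative, horizontal axis) of each pathway or process list with at least 4 tested members, with the numbers of members higher, lower and tested at the right. The solid line is 0 and the dashed line the median of all genes tested; of the pathway and process lists drawn, prehypertrophic markers lie highest at 2.15 and cell cycle genes lowest at -3.66, and cell type marker lists are not drawn.

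Mki67 was lower in the hypertrophic zone, and most other cell division genes held few counts in either zone. Mki67, the proliferation antigen Ki-67, measured 0, 3.12 and 2.47 CPM in the hypertrophic zone and 68.2, 88.2 and 110 CPM in the proliferative zone. That is 2 hypertrophic against 158 proliferative counts, and the log2 fold change was -5.20 ± 1.36 (SE, adjusted p = 0.0165). Of 37 cell cycle genes tested 33 had a fitted value below 0 and Mki67 alone passed. The list's median was -3.66, or -2.35 with the 12 genes that held 0 hypertrophic counts set to their bound, beside -0.47 for all genes treated so. Top2a, which untangles DNA, measured 0, 21.8 and 0 CPM against 118, 153 and 17.3 CPM without passing (adjusted p = 0.147). The cell cycle inhibitors, 8 tested, had a median of 0.73 and no call. Mki67 was not called in 6 of the 14 left-out fits, with adjusted p up to 0.246 without animal A.

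The sequence upstream of Mki67 (GRCm38.p6, chr7:135716451-135716629, minus strand, RefSeq promoter table) is shown because it carries 2 matches to TTTGAA, the cell cycle homology region, in capitals. Mki67 lies at chr7:135689784-135716450 by RefSeq, and the matches begin 45 and 27 bases before that gene start.
Mki67: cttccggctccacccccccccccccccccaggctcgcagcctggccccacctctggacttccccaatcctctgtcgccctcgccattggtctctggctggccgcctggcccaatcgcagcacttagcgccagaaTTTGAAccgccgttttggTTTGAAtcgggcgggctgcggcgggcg
On either strand these letters stood in 9 of 36 promoters of the cell cycle list (25.0%), in 10.1% of promoters of the genes tested and in 16.0% of all promoters of the table. A match is a description and not a binding site.

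A few genes of glucose use and acid transport were lower. Tpi1, the glycolytic triosephosphate isomerase, measured 8.03, 21.8 and 74.0 CPM in the hypertrophic zone and 343, 338 and 674 CPM in the proliferative zone (log2 fold change -3.88 ± 0.90 SE, adjusted p = 0.00402). Slc16a3, a lactate exporter, held 0 hypertrophic counts and measured 75.2, 129 and 201 CPM in the proliferative zone, at least 38.2-fold lower (adjusted p = 0.00952). Car12, a membrane carbonic anhydrase, measured 0, 62.4 and 4.94 CPM against 470, 456 and 704 CPM (log2 fold change -5.60 ± 1.22 SE, adjusted p = 0.00164). All 3 were lower in each animal without overlap, and they were the calls among 32 glycolysis and hypoxia genes, whose median was -2.07. Vegfa, the angiogenic factor on the same list, went the other way at 289, 403 and 158 CPM against 32.9, 64.5 and 2.16 CPM without passing (adjusted p = 0.116). Without animal A none of Tpi1, Slc16a3 and Car12 passed (adjusted p = 0.235, 0.113 and 0.107). Tpi1 was also lost without B (adjusted p = 0.165), Car12 without D (adjusted p = 0.0519) and Slc16a3 without B or D (adjusted p = 0.217 and 0.0785), and all 3 without hypertrophic library 2. The hypoxia element core ACGTG stood in 23 of 53 promoters of this list (43.4%), in 1 of 3 promoters of its called genes (that of Slc16a3), in 13 of 35 promoters of all lower genes (37.1%), in 23.0% of promoters of the genes tested and in 16.6% of all promoters.

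Lower levels were also measured for 4 genes of glycosaminoglycan synthesis and cell surface proteoglycans. Chst11, which sulfates chondroitin, measured 8.03, 178 and 535 CPM in the hypertrophic zone against 907, 1047 and 3863 CPM (log2 fold change -3.36 ± 0.74 SE, adjusted p = 0.00178). Csgalnact1, which starts chondroitin chains, measured 32.1, 12.5 and 17.3 CPM against 195, 138 and 709 CPM (log2 fold change -3.80 ± 1.01 SE, adjusted p = 0.0227). These were the 2 calls of 29 genes of that list, whose median was -0.43 beside -0.52 over all genes. Sdc4 and Gpc6, a syndecan and a glypican that carry heparan sulfate, were the 2 calls among 21 integrins and matrix receptors, both lower. The median of that list was -0.18. Sdc4 measured 24.1, 125 and 59.2 CPM against 376, 437 and 1426 CPM (log2 fold change -3.51 ± 0.90 SE, adjusted p = 0.0137), and Gpc6 measured 0, 6.24 and 4.94 CPM against 136, 103 and 339 CPM (log2 fold change -5.45 ± 1.28 SE, adjusted p = 0.0053). Each of the 4 was lost in 4 to 6 of the 14 left-out fits, with adjusted p up to 0.282 (Chst11, without animal A).

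Angptl2, a secreted angiopoietin-like protein, measured 0, 34.3 and 0 CPM in the hypertrophic zone and 310, 344 and 1681 CPM in the proliferative zone (log2 fold change -6.59 ± 1.25 SE, adjusted p = 1.17e-04). H19, an imprinted RNA abundant in growing tissue, measured 0, 156 and 86.4 CPM against 306, 454 and 771 CPM (log2 fold change -2.79 ± 0.56 SE, adjusted p = 2.89e-04). H19 was the only call among 19 imprinted and juvenile growth genes, and it was lost without proliferative library 9 (adjusted p = 0.364), without hypertrophic library 2 and without animal A.

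The rest of the lower genes named by size held 0 or 1 hypertrophic counts. Polr2d, a subunit of RNA polymerase II, Mb21d2 and Pkdcc, a secreted kinase of skeletal development, measured 752, 730 and 395 CPM in the proliferative sum of animal D but at most 26.0, 23.5 and 70.5 CPM in those of A and B. In animal D these levels came almost wholly from 1 library each. Proliferative libraries 8 and 9 held 335 and 13 counts of Polr2d, 0 and 338 of Mb21d2 and 183 and 0 of Pkdcc. Without animal D the adjusted p was 0.682, 0.712 and 0.282. Fam89a (30.6, 71.3 and 216 CPM), St8sia2, a polysialyltransferase (49.4, 80.3 and 106 CPM), and Slc37a3 (23.5, 88.2 and 54.0 CPM) held 0 hypertrophic counts. They were at least 28.1-fold, 22.5-fold and 18.1-fold lower, with adjusted p of 0.0307, 0.035 and 0.035. Col15a1, a basement membrane collagen, and Bcat1, which transaminates branched-chain amino acids, held 1 hypertrophic count each. Their pooled ratios were 0.00862 (exact 95% interval 2.17e-04 to 0.0484) and 0.0142 (3.57e-04 to 0.0803), from 242 and 147 proliferative counts. All 5 were lost in at least 5 of the 14 left-out fits.

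Several lists had no call. The unfolded protein response and secretory pathway had 28 of 29 fitted values below 0, a median of -1.55 and no call, and Hspa5, the main chaperone of the endoplasmic reticulum, measured 337, 297 and 427 CPM against 1067, 856 and 1020 CPM (adjusted p = 0.354). There were also no calls among 20 amino acid response genes (median -2.54), 17 of the GH and IGF pathway (-1.50), 43 cytosolic ribosomal protein genes (-0.97), 58 nuclear-encoded oxidative phosphorylation genes (-0.48), 22 cholesterol genes (-0.12), 4 natriuretic peptide pathway genes (0.28) and 11 immediate early genes (1.70). Aldh1a3 was the only call of 16 retinoid and sphingolipid genes (median -0.66). Egr1, an immediate early transcription factor chosen after its values were seen, measured 249, 115 and 2.47 CPM against 0 in every proliferative sum (adjusted p = 0.0522). Malat1, a nuclear long RNA outside the naming rule and also chosen afterwards, measured 17599, 28329 and 54600 CPM against 4847, 5123 and 5844 CPM (log2 fold change 2.40 ± 0.41 SE, adjusted p = 6.59e-06).

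Markers of blood, vessel and osteoclast cells summed to at most 222 CPM per list, and perichondrial markers to more. Summed over their lists, endothelial markers measured 8.03 to 74.0 CPM in the hypertrophic sums and 0 to 6.79 CPM in the proliferative sums, with Cdh5, Kdr and Emcn among 5 of 11 at 0. Osteoclast markers measured 2.47 to 24.1 against 6.48 to 40.0 CPM (4 of 10 at 0), and myeloid markers 0 to 222 against 2.16 to 20.4 CPM (9 of 16 at 0). Erythroid markers measured 7.40 to 96.8 against 2.16 to 30.6 CPM (5 at 0), lymphoid markers 0 against 0 to 32.9 CPM (7 at 0), and perichondrial and fibroblast markers 434 to 2048 against 769 to 1463 CPM (Thy1 and Ly6a at 0). Of these lists 6 perichondrial, 1 osteoclast and 1 erythroid marker had enough counts to be tested, and none was called. Endothelial, myeloid and lymphoid markers had 0 tested members, so the absence of a call there is no result. The part of these cell types in the zone differences was not tested.

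At P2 the same contrast, on other animals but within the same fit, called 161 genes (2.31%). Filter, scaling and the spread of each gene were shared, so the calls at P2 and P28 are not independent. Of the 38 higher genes at P28, 28 were also called higher at P2, which is 73.7% of the P28 and 35.4% of the 79 P2 calls. Of the 40 lower genes 15 were also called lower at P2, which is 37.5% of the P28 and 18.3% of the 82 P2 calls. The fitted P2 value had the P28 sign for 38 of 38 higher and 38 of 40 lower genes, where 42.9% and 57.1% of all genes had that sign. Loxl4 (7.81), Ibsp (8.88) and Prelp (-5.63) had P2 log2 fold changes near those at P28, whereas Tpi1 (-0.76) and Car12 (-1.39) lay nearer to 0 at P2. The difference between the ages was tested directly, and edgeR's quasi-likelihood test with Benjamini-Hochberg adjustment called 0 genes, with 413 at an unadjusted p under 0.05, while DESeq2 called 74. The P28 minus P2 difference was -6.44 ± 1.48 for Aldh1a3 (log2 scale, SE, adjusted p = 0.101), -3.95 ± 1.07 for Alpl (adjusted p = 0.187) and -2.96 ± 0.78 for Pth1r (adjusted p = 0.187).

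**Figure D4:**
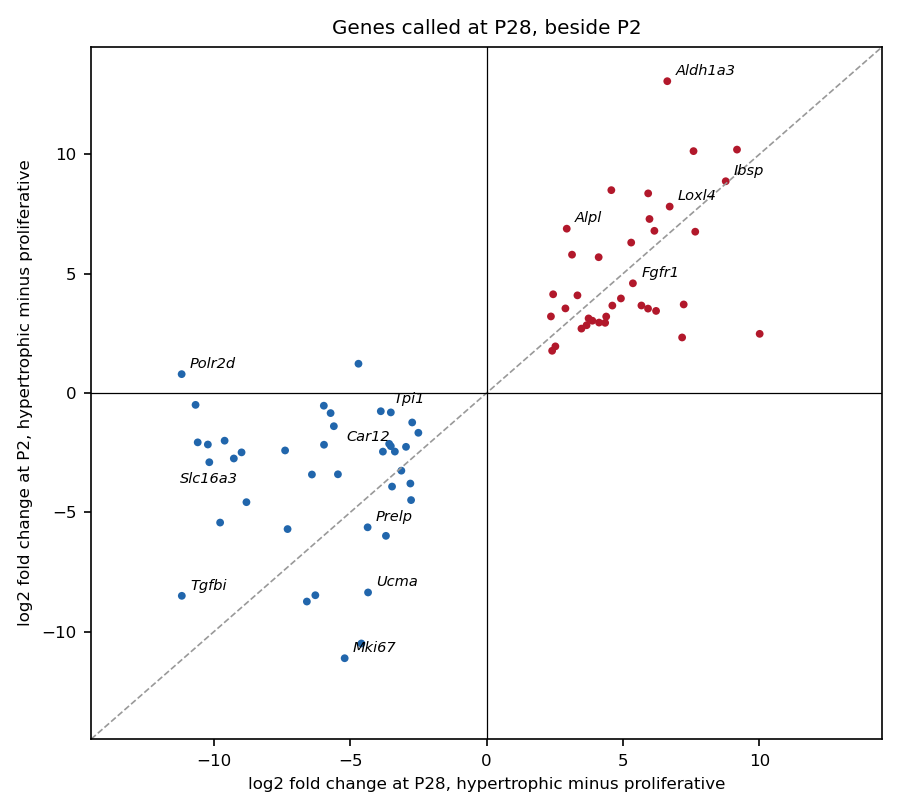
Log2 fold change at P2 (vertical axis) against P28 (horizontal axis), hypertrophic minus proliferative, for the genes called at P28 other than Rn45s and Lars2. Red genes were higher and blue genes lower at P28, and the dashed line marks equal values; all red points lie above 0 at P2, and 2 blue points (Polr2d and Tm9sf2) do too.

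Xylene-treated P28 sections, left out of the fit, were set beside these calls as a description. In animal E, which gave no ethanol library to the fit, 36 of 38 higher genes were higher and 36 of 40 lower genes were lower in the hypertrophic sum, where 45.1% and 52.1% of 6955 genes had those signs. The other 2 higher genes, Rn45s and Lars2, went the opposite way there, at -0.72 and -0.98 on the log2(CPM + 1) scale. In the xylene sums that carry the label of animal D the counts without Rn45s and Lars2 were 35 of 36 and 36 of 40, beside 49.6% and 49.9%. On the log2(CPM + 1) scale animal E measured a difference of 11.26 for Ibsp, 7.84 for Loxl4, 5.48 for Col10a1, -7.92 for Tgfbi and -4.74 for Prelp. Angptl2 differed by only -0.08 there, with 314 hypertrophic and 398 proliferative counts, and Ucma by -1.58. Polr2d, Id2, Slc37a3 and Tm9sf2 were not lower in animal E.

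**Figure D5:**
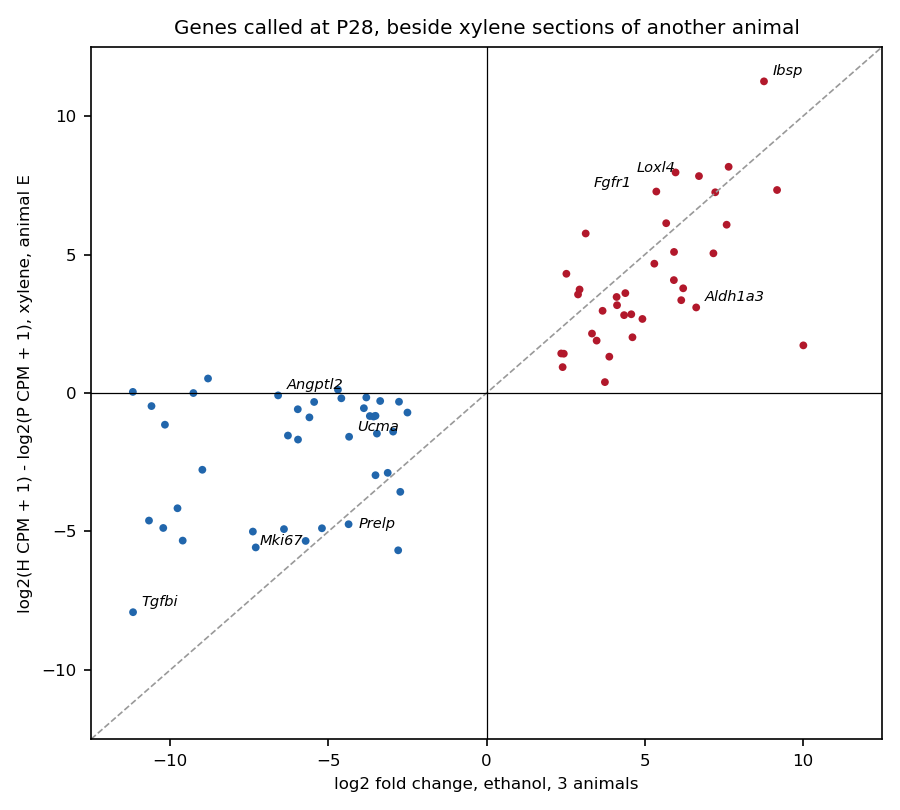
Difference between zones in xylene sections of animal E (log2 of TMM-normalised CPM plus 1, hypertrophic minus proliferative, vertical axis) against the ethanol log2 fold change (horizontal axis) for the 76 genes called in ethanol other than Rn45s and Lars2. Red genes were higher and blue genes lower in ethanol; all 36 red points drawn lie above 0, and 36 of 40 blue points lie below 0, many closer to 0 than the dashed line of equal values.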

How the data were processed

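The deposited table holds whole-number read counts per gene symbol. The build mm10, featureCounts 1.5.3 of Subread, STAR 2.5.2b and cutadapt were listed in the submitters' processing notes, which give no roles or settings. Of 68 library names 32 head 2 columns, which were summed. Counts of 21 sums per animal and zone (P2 and P28, ethanol) were fitted with edgeR 4.0.16 (R 4.3.3; TMM, filterByExpr, robust quasi-likelihood, Benjamini-Hochberg adjustment, 0.05) with animal as block and zone within age, leaving 8 residual degrees of freedom. The block comes from the labels, since zones were cut from the same animal; deviations of the 3 P28 pairs correlated at 0.03, 0.01 and 0.05. SE is the fold change over the root of F. DESeq2 1.42.0, other scalings, filters and library minimums, thinning to 108601 counts and leaving out animals or libraries were alternatives.

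The members, gene lists and markers were chosen with earlier results of these data known, and the lists have no test of their own. Named genes are 13 anchors, the 12 called genes with the largest fold change in each direction (100 or more counts in the higher zone, same direction in 3 of 3 animals, Rik, Gm and ribosomal RNA symbols left out), called list members and calls of the age difference. RefSeq promoters (GRCm38.p6) were matched by symbol for 5263 of 6958 genes. Intervals cover counting error only.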

Additional observations from a re-analysis of the deposited data

Results flagged for a closer look

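In 111 groups of 5 hypertrophic or 6 proliferative P28 libraries, 30 had a highest or lowest library set apart from the others by Dixon's rule. Chance would set apart about 1 in 20 groups if the values were normally distributed, which sparse counts are not. A group with counts in only 1 library is always set apart by this rule. The 30 therefore cannot be weighed against that rate, and libraries of 1 animal are not independent. Values are CPM of the whole library total, Rn45s included. Hypertrophic library 8 stood apart with 1523 genes detected and, on this scale, with the lowest Alpl level, 313 CPM. Rn45s took 94.0% of its counts, and 236 Alpl counts stood beside 13080 counts outside Rn45s, Lars2 and Glra2. In hypertrophic library 9 it was 1454 beside 305928, so the low Alpl level holds only for the whole total. Hypertrophic library 2 had the highest Spp1 (3259), Mmp13 (807) and Sox4 (601) levels. Hypertrophic library 5 had the highest Ucma (138), Angptl2 (54.4), H19 (203), Serpinh1 (1102) and Gpc6 (9.88) levels, and library 6 the highest Phex level (1078). Hypertrophic library 9 held the only Bcat1 and Col15a1 counts of its group, at 0.725 CPM each.

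In the proliferative zone library 8 had the highest Polr2d (1110), Pkdcc (606), Angptl2 (2095), Epyc (1051), Csgalnact1 (915) and Chst11 (5014) levels. Library 9, which differs in Xist and Y-linked counts from hypertrophic library 9 of the same label, had the highest Runx2 (659.7), Mb21d2 (551), Id2 (169) and Col15a1 (279) levels. Library 1 had the highest Ibsp (62.6) and Fn1 (620) levels, library 5 the highest Bmp8a (53.5) and Slc37a3 (205) levels, and library 6 the highest Lipg (5.39), Cxcr7 (10.8) and Hpgd (43.2) levels.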

How the results depend on the processing

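The number of calls depended on the processing. In place of 78 calls (38 higher, 40 lower), DESeq2 gave 215 (71 and 144), no filter on low counts 48 (22 and 26), a library minimum of 50000 gave 21 (12 and 9), fits without the animal block (no pairing of zones) 9 (4 and 5), P28 sums only 12 (9 and 3), P28 hypertrophic and proliferative sums only 46 (17 lower), thinning 3 (2 and 1) and label suffixes as separate animals 141 (61 and 80). A library minimum of 200000 gave 24 lower calls, and leaving out hypertrophic library 8 and proliferative library 9 together, chosen after the data were seen, 23 lower. Leaving out an animal or library gave 18 to 103 calls, 9 to 44 higher and 4 to 59 lower. RLE factors gave 60 calls, 33 higher and 27 lower, and moved the median of all genes from -0.52 to -0.39. With the main scaling that median was -1.07 without hypertrophic library 9 and -0.12 without proliferative library 9. DESeq2 called 69 of the 78, and of 48 named calls it lost 5, Slc37a2, Lipg, Irx5, Bmp8a and Fam89a. The age difference, 0 calls in the main fit, had 74 with DESeq2, 3 at a minimum of 200000, 10 with the minimum counted without Rn45s, Lars2 and Glra2, 5 with separate suffixes and 0 to 10 when an animal or library was left out. Of single named genes, Acan turned to -0.18 after thinning, -0.04 without animal D and -0.77 without hypertrophic library 9, and Runx2 to 0.022 after thinning, 1.57 without proliferative library 9 and 1.54 without both libraries; leaving out an animal or library moved them between -0.77 and 0.65, and between -0.71 and 1.57. Named genes kept direction and side of the threshold in 1074 values, lost the call in 404 and gained it in 10. The cause of these changes was not tested.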
